A study of Mus musculus with 6 samples.

Results

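MHC class II molecules display peptides from swallowed proteins to CD4 T cells. Each molecule is a pair of an alpha and a beta chain that is built around the invariant chain, carried to endosomes, freed of the invariant chain by proteases and loaded with peptide. In skin these molecules are known from Langerhans cells, dermal dendritic cells and macrophages, while other cells can make them after exposure to interferon gamma. The genes described here are 10 of the 55487 counted, taken by symbol, with earlier results of these data known. They are the chain genes H2-Aa, H2-Ab1 and H2-Eb1, the invariant chain gene Cd74, the transactivator gene Ciita, the loading factor genes H2-DMa and H2-DMb1, the genes of their inhibitor, H2-Oa and H2-Ob, and the protease gene Ctss. Each symbol matched 1 row, and all 10 passed the filter on low counts.

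The samples were whole dorsal skin of mice at day 2, 3 labelled control and 3 labelled DPCP. DPCP (diphenylcyclopropenone) is a contact sensitizer that provokes an allergic dermatitis and is also used against alopecia areata. Strain, age, the treatment of the control skin and the source animal of each sample are not given in the sources used here, so a p-value here reflects sample-to-sample spread only, some of which can be technical. Libraries held 28346992 to 38846787 counts. Skin was recognisable by Krt14, a keratin of basal keratinocytes, at 4893 ± 299.8 CPM (counts per 1000000 counts of the library) in the control group and 16980 ± 1480 CPM in the DPCP group (SD, n = 3). The labels give no batch. DPCP replicate 1 correlated with the control libraries at 0.944 to 0.946 across genes, against 0.926 to 0.929 for the other DPCP libraries. Control replicate 3 had the lowest summed level of 4 leukocyte markers, 231 CPM against 363 and 349 CPM in the other control libraries.

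Class II genes are known to be switched on by CIITA, which docks on factors bound to an X box and a Y box a short way before the transcription start. RefSeq promoters (GRCm38.p6, 250 bases before to 50 after each start) were on hand for 7 of the 10 genes and for 2 relatives, H2-Eb2 and H2-DMb2, but not for H2-Ab1, Cd74 and Ciita. They were searched on both strands for the letters AACNGATG (X box core) and ATTGG (Y box core), which do not overlap. The stretches below are shown because they hold the letters close to the start; each is written 5′ to 3′ along the gene's strand, with the letters in capitals.

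H2-Eb1 (chr17:34305748-34305827, plus strand): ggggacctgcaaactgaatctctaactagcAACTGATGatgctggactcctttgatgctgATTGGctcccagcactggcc

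H2-Eb2 (chr17:34325515-34325594, plus strand): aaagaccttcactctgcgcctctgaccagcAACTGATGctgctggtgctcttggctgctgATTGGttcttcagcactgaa

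H2-DMb1 (chr17:34153070-34153149, plus strand): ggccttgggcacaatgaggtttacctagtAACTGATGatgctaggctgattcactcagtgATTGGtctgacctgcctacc

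H2-DMb2 (chr17:34145099-34145178, plus strand): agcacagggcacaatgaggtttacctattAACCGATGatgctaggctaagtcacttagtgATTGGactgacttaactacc

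H2-Aa (chr17:34287852-34287931, minus strand): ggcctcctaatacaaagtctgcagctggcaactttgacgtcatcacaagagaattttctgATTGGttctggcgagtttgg

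H2-Ob (chr17:34238788-34238867, plus strand): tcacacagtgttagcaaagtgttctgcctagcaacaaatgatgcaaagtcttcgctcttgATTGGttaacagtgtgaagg

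H2-Oa (chr17:34092276-34092355, plus strand): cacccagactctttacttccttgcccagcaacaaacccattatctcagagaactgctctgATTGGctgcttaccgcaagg

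In 4 of the 9 genes with a promoter, H2-Eb1, H2-Eb2, H2-DMb1 and H2-DMb2, the X box letters were followed by the Y box letters on the gene's strand, with 22 or 23 bases between them. Of all 32851 promoters, 26 (0.0791%) held that order within 60 bases on either strand. That count includes these 4 genes, which are not independent: H2-Eb2 is a relative of H2-Eb1 and H2-DMb2 of H2-DMb1. The letters searched were the known cores of class II promoters, so the share is a description and no test. The X box letters alone stood in 2.32% of promoters and the Y box letters alone in 37.4%. H2-Aa, H2-Ob and H2-Oa held only the Y box letters, at positions -48, -57 and -43 from the start. Only exact letters were sought, so an X box with other letters would be missed, and these genes are not shown to lack one. H2-DMa held the Y box letters at 1 of its 2 annotated starts, far from the start at -198, and Ctss held the X box letters at -207 without a Y box. These are matches of letters and say nothing of what was bound in the skin.

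**Figure D1:**
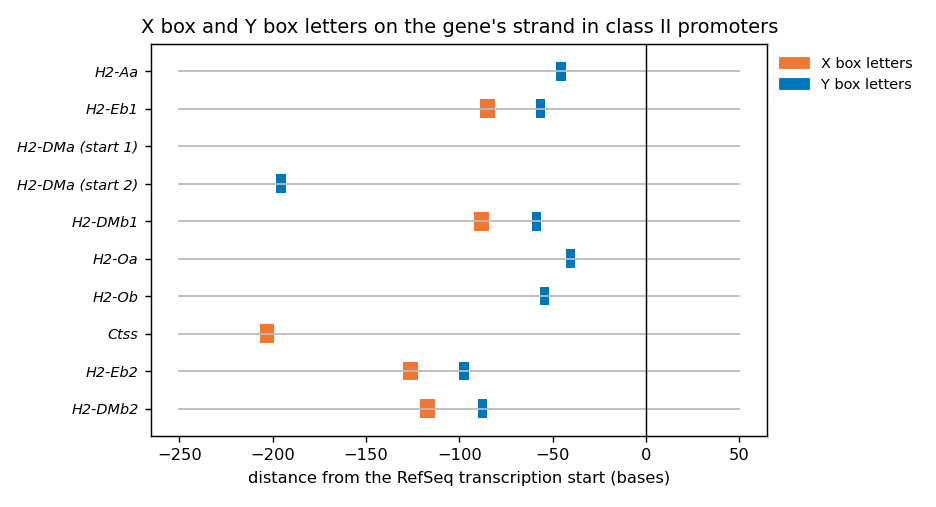
Position of X box letters (orange) and Y box letters (blue) along the gene's strand in the RefSeq promoters of 9 class II genes, with the distance from the transcription start in bases on the horizontal axis; the first match or the first X and Y pair is drawn. In H2-Eb1, H2-DMb1, H2-Eb2 and H2-DMb2 the X box letters lie 30 or 31 bases ahead of the Y box letters, counted from start to start.

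At day 2, class II chain, invariant chain and transactivator RNA was not called different between DPCP and control skin in the main fit. In that fit Ctss rose and H2-Ob fell. With the replicate number added to the fit (replicate block), the chain genes and Cd74 were called lower. A gene was called where edgeR's quasi-likelihood test gave a Benjamini-Hochberg adjusted p under 0.05 over all 18259 genes tested. Of the 10 genes 1 was called higher, 1 lower and 8 were not called, so 20% were called against 46.1% of all genes tested (22.8% higher and 23.3% lower). The median log2 fold change of the 10 genes was -0.41, beside -0.01 over all genes tested. Together the 10 genes took 0.352%, 0.318% and 0.209% of the counts in control replicates 1 to 3 and 0.282%, 0.248% and 0.174% in the DPCP replicates.

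**Figure D2:**
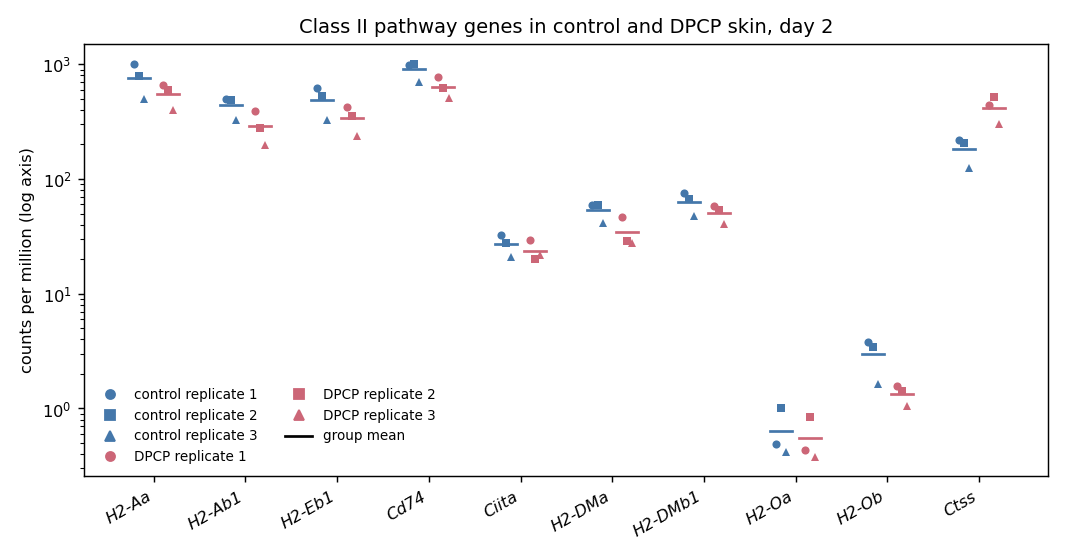
Level of the 10 class II pathway genes in CPM (log axis) in each of the 3 control and 3 DPCP libraries, with group means as bars. The groups part for Ctss, higher in DPCP, and for H2-Ob, lower in DPCP, and overlap for the other 8 genes.

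The chains came first. H2-Aa (ENSMUSG00000036594, GRCm38 chromosome 17, 34282744 to 34287823, minus strand) encodes the alpha chain of the A molecule and stood at 1013, 787 and 501 CPM in control and at 659, 599 and 403 CPM in DPCP libraries. H2-Ab1 (ENSMUSG00000073421, chromosome 17, 34257689 to 34269419, plus strand) encodes its beta chain and stood at 503, 489 and 327 CPM in control and at 392, 279 and 197 CPM in DPCP libraries. H2-Eb1 (ENSMUSG00000060586, chromosome 17, 34305867 to 34316674, plus strand), for the beta chain of the E molecule, stood at 617, 527 and 329 CPM and at 422, 355 and 237 CPM. In each of the 3 genes control replicates 1 and 2 were the highest libraries and DPCP replicate 3 the lowest, and the groups overlapped because control replicate 3 fell among the DPCP libraries.

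The log2 fold change of H2-Aa was -0.39 ± 0.25 (SE, 95% interval -0.97 to 0.19, edgeR adjusted p = 0.241). That of H2-Ab1 was -0.53 ± 0.24 (interval -1.07 to 0.02, edgeR adjusted p = 0.103), and that of H2-Eb1 -0.46 ± 0.25 (interval -1.03 to 0.11, edgeR adjusted p = 0.165). These intervals, which are not adjusted for the number of genes, hold falls of about 1 log2 unit as well as no change. H2-Ab1 was called lower without DPCP replicate 1 (-0.78, adjusted p = 0.0226) and H2-Eb1 when control replicate 3 was left out (-0.67, adjusted p = 0.0447). H2-Ab1 also passed with DESeq2 (adjusted p = 0.0492) and without a count filter (0.0186). With the replicate block, H2-Aa (-0.37, edgeR adjusted p = 0.0195), H2-Ab1 (-0.56, 0.00456) and H2-Eb1 (-0.45, 0.00389) were called lower. H2-Ea-ps, the locus of its alpha chain partner, annotated as a pseudogene, had 0 counts in the 3 control libraries and in DPCP replicate 1 and 2 and 3 counts in the others, at or under the level that a count of 0 allows (0.0772 to 0.106 CPM, 3 counts per library, counting error only).

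Cd74 (ENSMUSG00000024610, chromosome 18, 60803848 to 60812652, plus strand) encodes the invariant chain, which blocks the peptide groove and directs class II molecules to endosomes. It stood at 995, 1013 and 699.5 CPM in control and at 775, 621 and 506 CPM in DPCP libraries. As for the chains, control replicates 1 and 2 were the highest and control replicate 3 lay between DPCP replicates 1 and 2. The log2 fold change was -0.43 ± 0.18 (SE, interval -0.84 to -0.03, edgeR adjusted p = 0.0766). Leaving out control replicate 3 (-0.57, adjusted p = 0.0300) or DPCP replicate 1 (-0.58, adjusted p = 0.0338) made Cd74 a lower call, as did DESeq2 (0.0410) and the fit without a count filter (0.0220). So did the replicate block (-0.44, edgeR adjusted p = 0.00741).

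Compared per length, as RPKM (CPM per kilobase of exon), Cd74 was the most abundant of the 10 in control skin at 537 ± 105 RPKM (SD, n = 3). H2-Eb1 at 253 ± 75.6, H2-Aa at 202 ± 67.6, H2-Ab1 at 171 ± 38.0 and Ctss at 135 ± 38.6 RPKM followed. The range of Cd74 lay above that of H2-Eb1, while each of the next 4 genes overlapped its neighbour in this order. H2-DMb1 was at 37.6 ± 8.62 and H2-DMa at 15.5 ± 3.08 RPKM, apart from each other and from Ctss. Ciita was at 2.83 ± 0.622 RPKM, and H2-Ob (0.553 ± 0.216 RPKM) and H2-Oa (0.454 ± 0.227 RPKM) overlapped at the bottom. In DPCP skin Ctss, at 308 ± 81.7 RPKM, stood next to Cd74, at 378 ± 80.5 RPKM, and the ranges of these 2 genes overlapped, while Ctss lay above all DPCP values of H2-Eb1. The ratio of Cd74 to the summed chains in RPKM was 0.760, 0.902 and 0.972 in control and 0.850, 0.823 and 0.988 in DPCP libraries, and the groups overlapped.

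Ciita (ENSMUSG00000022504, chromosome 16, 10480059 to 10528418, plus strand) encodes the transactivator that class II promoters depend on. It stood at 32.5, 27.8 and 20.7 CPM in control and at 29.6, 19.95 and 21.9 CPM in DPCP libraries, with the groups mixed. The log2 fold change was -0.11 ± 0.18 (SE, interval -0.51 to 0.30, edgeR adjusted p = 0.644), and 0.051 without control replicate 1. Its exons share 3.45% of their bases with Dexi on the other strand, and reads there were not counted. Gene counts do not tell which of its promoters was in use.

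The loading factors sit in endosomes, where H2-DM trades the invariant chain remnant for peptide. H2-DMa (ENSMUSG00000037649, chromosome 17, 34119541 to 34139101, plus strand) stood at 59.6, 59.6 and 41.2 CPM in control and at 46.6, 28.6 and 27.6 CPM in DPCP libraries. Only DPCP replicate 1 and control replicate 3 overlapped. Its log2 fold change of -0.57 ± 0.21 (SE, interval -1.04 to -0.10) had an edgeR adjusted p of 0.0508, next to the threshold. It became a lower call when control replicate 3 was left out (-0.71, adjusted p = 0.0282) or DPCP replicate 1 (-0.83, adjusted p = 0.00476). It also passed with DESeq2 (0.0197), limma voom (0.0435), upper-quartile factors (0.0471), library totals alone (0.0411) and without a count filter (0.00547). With the replicate block it passed too (-0.59, edgeR adjusted p = 0.00729). Of its exon bases 10.44% are shared with Brd2 on the other strand.

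H2-DMb1 (ENSMUSG00000079547, chromosome 17, 34153072 to 34160230, plus strand), the main beta chain gene of H2-DM, stood at 75.5, 66.95 and 47.2 CPM in control and at 58.6, 53.5 and 40.7 CPM in DPCP libraries. The groups overlapped (log2 fold change -0.23 ± 0.18, SE, interval -0.64 to 0.18, edgeR adjusted p = 0.325). Its close copy H2-DMb2, named here as a relative and not one of the 10, stood at 16.1, 15.1 and 11.8 CPM and at 8.499, 6.54 and 4.65 CPM, with every DPCP library below every control library. H2-DMb2 fell by 1.05 ± 0.22 on the log2 scale (SE, edgeR adjusted p = 0.00467). The levels of this pair are uncertain, since reads that align to both copies were not counted.

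H2-O is the inhibitor of H2-DM and is known mostly from B cells and some dendritic cells. H2-Ob (ENSMUSG00000041538, chromosome 17, 34238903 to 34254414, plus strand) stood at 3.81, 3.47 and 1.64 CPM in control and at 1.58, 1.42 and 1.04 CPM in DPCP libraries. All DPCP libraries lay below all control libraries, with control replicate 3 just above DPCP replicate 1 (57.4% of all genes tested did not overlap, 33.2% being lower in DPCP). H2-Ob fell by 1.05 ± 0.33 on the log2 scale (SE, edgeR adjusted p = 0.0304). The call was lost without control replicate 1 (-0.82, adjusted p = 0.110), control replicate 2 (-0.92, 0.0967), DPCP replicate 2 (-1.12, 0.0620) or DPCP replicate 3 (-0.89, 0.0934), and with limma voom (-0.95, adjusted p = 0.0591).

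H2-Oa (ENSMUSG00000024334, chromosome 17, 34092340 to 34095234, plus strand) was the scarcest, at 0.494, 1.005 and 0.418 CPM in control and 0.432, 0.849 and 0.380 CPM in DPCP libraries. These levels rest on 12 to 33 counts per library, and the groups were mixed (log2 fold change -0.09 ± 0.48, SE, interval -1.19 to 1.003, edgeR adjusted p = 0.890). Leaving out control replicate 2 turned the value positive (0.38), as did leaving out replicate 1 (0.08) or 3 (0.12) of the DPCP group. Of its exon bases 22.8% are shared with BC051537 on the other strand. In summed RPKM, H2-DMa and H2-DMb1 exceeded H2-Oa and H2-Ob 58.7, 42.05 and 66.4 times in control and 80.4, 46.3 and 69.4 times in DPCP libraries, which overlapped.

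Ctss (ENSMUSG00000038642, chromosome 3, 95526786 to 95556403, plus strand) encodes cathepsin S, the protease of antigen-presenting cells that cuts the invariant chain down to its last remnant. It stood at 220.1, 208 and 124 CPM in control and at 438, 519 and 299 CPM in DPCP libraries, with no overlap (24.3% of all genes tested were higher in DPCP without overlap). Ctss rose by 1.27 ± 0.25 on the log2 scale (SE, interval 0.70 to 1.84, edgeR adjusted p = 0.00366), a 2.42-fold difference. It was called under every alternative tried, at values from 1.05 to 1.48. The ratio of Ctss to Cd74 in RPKM went from 0.274, 0.254 and 0.219 in control to 0.699, 1.03 and 0.731 in DPCP libraries, without overlap. An exact two-sided permutation test of that ratio gave p = 0.10, the smallest that 3 against 3 samples allow. The ratio was formed from genes already seen with log2 fold changes of opposite sign (1.27 for Ctss and -0.43 for Cd74). No smaller p was possible, so the test decides nothing and the ratios stand as a description.

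**Figure D3:**
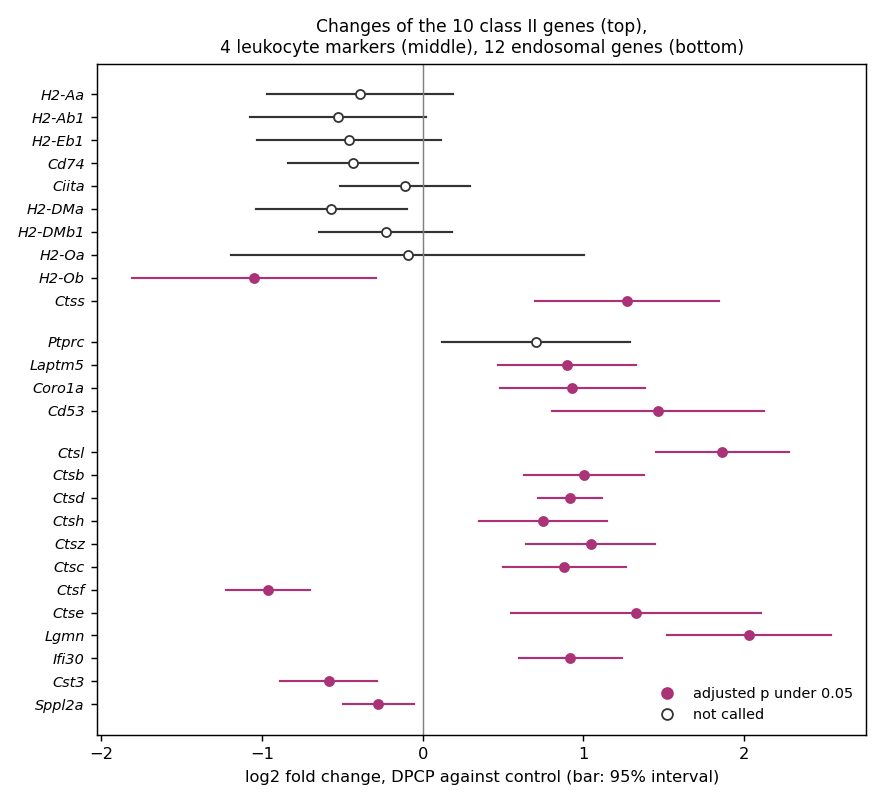
Log2 fold changes of DPCP against control skin with 95% intervals for the 10 class II genes, 4 leukocyte markers and 12 genes of endosomal proteolysis; filled points passed an adjusted p of 0.05. Of the class II genes only Ctss and H2-Ob are filled, while all 12 endosomal genes and 3 of the 4 leukocyte markers are.

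Ctss was not alone among endosomal genes. Of 12 other genes of endosomal proteolysis 9 rose, 3 fell and none was without a call, with a median log2 fold change of 0.92 beside -0.01 over all genes tested. All genes tested were called higher in 22.8% and lower in 23.3% of cases, so the 3 of 12 that fell are near the background. Lgmn, which encodes the asparagine endopeptidase legumain, rose from 158, 190.1 and 117 CPM to 467, 757 and 568 CPM (log2 fold change 2.03 ± 0.22, SE, edgeR adjusted p = 0.000208). Ctsl, for cathepsin L, which processes the invariant chain in thymic epithelium, rose by 1.86 ± 0.18 on the log2 scale and Ctsd, for the aspartic protease cathepsin D, by 0.91 ± 0.09. Cst3, for cystatin C, a secreted inhibitor of cysteine cathepsins, fell from 913, 819.9 and 752 CPM to 609, 526 and 437 CPM (log2 fold change -0.59 ± 0.13). Ctsf, for cathepsin F, fell by 0.96 ± 0.11 on the log2 scale. Sppl2a, for the membrane protease that clears the last invariant chain fragment, had a log2 fold change of -0.28 ± 0.10. Its call was lost without control replicate 1 (-0.22), 2 (-0.29) or 3 (-0.29), without DPCP replicate 1 (-0.31) or 3 (-0.19), and without a count filter (adjusted p = 0.0649).

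Regulators of class II transcription were called about as often as genes at large. Of 17 genes for promoter-binding factors and interferon gamma signalling 5 rose, 2 fell and 10 were not called, with a median log2 fold change of 0.17. That is 41.2% called, against 46.1% of all genes tested. Irf4, a factor of Langerhans cells and type 2 dendritic cells, fell from 42.2, 50.2 and 39.4 CPM to 26.9, 17.4 and 12.2 CPM (log2 fold change -1.15 ± 0.24, SE, edgeR adjusted p = 0.00486). Spi1, for the myeloid factor PU.1, rose by 1.01 ± 0.19, Irf8 by 0.76 ± 0.18 and the kinase gene Jak2 by 0.51 ± 0.12 on the log2 scale. Rfx5, for a subunit of the complex that binds the X box, was at 16.1 ± 1.42 CPM in control and 11.9 ± 0.871 CPM in DPCP (SD, n = 3; log2 fold change -0.36 ± 0.12, edgeR adjusted p = 0.0373). The Rfx5 call was lost without control replicate 2 (-0.30) or 3 (-0.34), without DPCP replicate 1 (-0.30) or 2 (-0.36), and without a count filter (adjusted p = 0.0717). Without DPCP replicate 2 the list had 3 higher and 1 lower call. Library totals alone also gave 3 higher calls.

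Among interferon gamma target genes, 16 of 18 had enough counts, of which 3 rose, 1 fell and 12 were not called. The chemokine genes Cxcl9 and Cxcl10 rose by 1.71 ± 0.34 and 1.67 ± 0.30 on the log2 scale (SE), and Socs1, a brake on interferon signalling, by 0.99 ± 0.16. Nlrc5, the class I counterpart of Ciita, fell by 0.77 ± 0.11. Lower calls in the list numbered 3 without DPCP replicate 1 and 2 without a count filter. The median log2 fold change of this list was 0.17, with 25% of its tested genes called against 46.1% of all genes tested.

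Partners of class II at the cell surface were described by 2 lists. Of 9 genes for turnover and costimulation 2 rose, 1 fell and 6 were not called (33.3% called against 46.1% of all genes tested; median log2 fold change 0.26). The costimulator gene Cd80 rose from 3.85, 3.71 and 1.61 CPM to 7.55, 11.2 and 6.68 CPM (log2 fold change 1.57 ± 0.33, SE) and Pdcd1lg2, for the inhibitory ligand PD-L2, by 1.61 ± 0.35. March8, for a ubiquitin ligase that removes class II from the surface, fell by 0.73 ± 0.09 on the log2 scale. Of 5 genes for partners of the invariant chain and receptors of class II, Cd44, Mif and Cd4 rose (0.88 ± 0.11, 0.48 ± 0.09 and 0.94 ± 0.25 on the log2 scale, SE), and the other 2 were not called. That is 60% called, against 46.1% of all genes tested. In the separate list of T cell genes, described below, 5 of 6 fell, and the cells that made Cd4 RNA were not tested. Of the remaining class II genes of the locus, H2-Eb2 stood at 0.722 ± 0.0822 and 0.534 ± 0.211 CPM (SD, n = 3) and was not called.

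RNA of markers shared by all leukocytes was higher in DPCP skin. The 4 leukocyte markers Ptprc, Laptm5, Coro1a and Cd53 summed to 363, 349 and 231 CPM in control and 516, 751 and 485 CPM in DPCP libraries. Laptm5, Coro1a and Cd53 rose by 0.90 ± 0.19, 0.93 ± 0.20 and 1.46 ± 0.29 on the log2 scale (SE), while Ptprc, which encodes CD45, had a log2 fold change of 0.70 ± 0.26 and was not called (edgeR adjusted p = 0.0517). Divided by these 4 markers in RPKM, the 3 chains went from 7.39, 7.11 and 6.47 in control to 3.37, 1.86 and 2.03 in DPCP libraries. The control mean of that ratio was 2.89 times the DPCP mean. For Cd74 the ratio went from 5.61, 6.41 and 6.29 to 2.86, 1.53 and 2.01, and for Ciita from 0.0323, 0.0310 and 0.0328 to 0.0192, 0.00866 and 0.0153. The groups did not overlap in any of these 3 ratios, and control replicate 3, low in level, lay with the other control libraries. A gene of unchanged level would also fall in such a ratio, and the share of all genes without overlap in it was not counted. The denominator moved with these ratios: the 4 markers averaged 314 CPM in control skin and 584 CPM after DPCP. In RPKM, the unit of the ratios, Cd53 was its largest part, at 34.7 in control and 89.9 in DPCP skin. Coro1a was at 25.0 and 45.0, Laptm5 at 23.7 and 41.7 and Ptprc at 5.15 and 7.88 RPKM. The chains, Cd74 and Ciita were not called in the main fit. Neutrophil markers averaged 21.1 CPM in control skin and 764 CPM after DPCP, where S100a8 and S100a9 averaged 208 and 380 CPM. The cells that made these RNAs, and the part of such cells in the ratios, were not tested.

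For Ctss the same ratio was 1.54, 1.63 and 1.38 in control and 2.00, 1.58 and 1.47 in DPCP libraries, which overlapped. The ratio of Cd74 to Ptprc alone had an exact two-sided permutation p of 0.10, the smallest possible with 3 against 3 samples. This test could not pass 0.05. It was run on 2 genes already seen with log2 fold changes of opposite sign (-0.43 and 0.70), so it decides nothing. In whole skin, fewer cells of a type and less RNA per cell cannot be told apart.

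**Figure D4:**
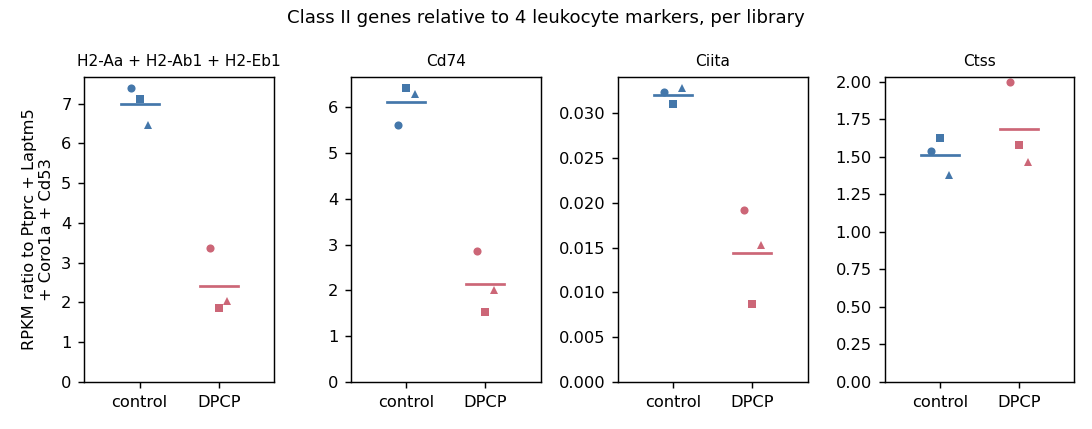
Ratio of class II gene RPKM to the summed RPKM of Ptprc, Laptm5, Coro1a and Cd53 in each library, for the 3 chains together, Cd74, Ciita and Ctss; circles, squares and triangles are replicates 1, 2 and 3 and bars are group means. The chains, Cd74 and Ciita are lower in all DPCP libraries than in any control library, while Ctss overlaps.

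Lists of markers of the cell types that carry class II were called at shares from 37.5% to 45.5% for dendritic cells and macrophages, not above the 46.1% of all genes tested, and differed in the direction of the calls. Of 11 genes of Langerhans and conventional dendritic cells 5 fell, none rose and 6 were not called by edgeR (45.5% called, against 23.3% of all genes called lower; median log2 fold change -0.23), and their summed level was 505, 505 and 394 CPM in control and 374, 432 and 323 CPM in DPCP libraries. Cd207, for the Langerhans cell lectin langerin, fell from 40.2, 33.4 and 33.7 CPM to 14.5, 9.68 and 6.23 CPM (log2 fold change -1.74 ± 0.25, SE, edgeR adjusted p = 0.000824). Batf3, a factor of type 1 dendritic cells, and Epcam, also made by follicle keratinocytes, had log2 fold changes of -1.21 ± 0.33 and -0.32 ± 0.08. The Batf3 call was lost without control replicate 1 (-1.06) or 2 (-1.02) and without DPCP replicate 2 (-1.10) or 3 (-1.09), and that of Epcam without control replicate 1 (-0.28, adjusted p = 0.0504). The count of 5 was 1 without control replicate 1, 3 without control replicate 2 and 2 without DPCP replicate 3. It held 1 higher call without DPCP replicate 1, with DESeq2 and without a count filter.

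Of 8 genes of mature dendritic cells 3 rose and none fell by edgeR (37.5% called, against 22.8% of all genes called higher; median log2 fold change 0.19). Fscn1, an actin bundler that other cells can also make, rose from 14.5, 16.98 and 11.2 CPM to 106, 119 and 126 CPM, the homing receptor gene Ccr7 by 1.74 ± 0.26 and Cd200 by 0.55 ± 0.09 on the log2 scale (SE). Among 14 macrophage genes edgeR called 6 higher and none lower (42.9% called, against 22.8% of all genes called higher; median log2 fold change 0.67), and their sum was 2460, 2627 and 1613 CPM in control and 3518, 4970 and 3009 CPM in DPCP libraries. Cd68, which encodes a lysosomal protein of macrophages, rose by 1.54 ± 0.25 and Cd14, for a receptor of bacterial lipopolysaccharide, by 2.81 ± 0.45 on the log2 scale (SE; 2.04 for Cd14 without DPCP replicate 2). Without a count filter 10 macrophage genes were higher. Of 4 monocyte genes 3 rose, against 22.8% of all genes called higher. These were Chil3 (5.58 ± 0.27 on the log2 scale, SE), Ly6c2 (1.58 ± 0.29) and the chemokine receptor gene Ccr2 (0.74 ± 0.27). The Ccr2 call was lost without control replicate 2 (0.74) or 3 (0.50), without DPCP replicate 1 (0.78) or 2 (0.54), and with upper-quartile factors, library totals alone or a filter on CPM (adjusted p of 0.0501 to 0.163 over these).

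Lymphocytes and neutrophils differed from these. B cell genes, of which 4 of 6 were tested, summed to 1.79 to 3.35 CPM in control and 3.28 to 4.08 CPM in DPCP libraries, and the defining markers Ms4a1 and Pax5 had too few counts to be tested. Only Cd22 was called among the B cell genes, higher by 1.61 ± 0.28 on the log2 scale (SE; 25% of those tested called, against 46.1% of all genes tested). T cell genes fell in 5 of 6 cases, against 23.3% of all genes tested called lower. Among these, Cd3g fell by 1.86 ± 0.20, Cd3e by 2.14 ± 0.29 and Cd247 by 1.92 ± 0.20. Of the Cd247 exon bases 60.29% are shared with Pou2f1 on the other strand or Gm16565 on its own, and reads there were not counted. All 5 tested neutrophil genes rose, against 22.8% of all genes tested called higher. Among these, Csf3r rose by 4.28 ± 0.39, S100a8 by 7.09 ± 0.47 and S100a9 by 6.18 ± 0.51. The neutrophil genes summed to 18.3 to 24.1 CPM in control and 452 to 1138 CPM in DPCP libraries. The part of any of these cell types in the class II values was not tested.

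**Figure D5:**
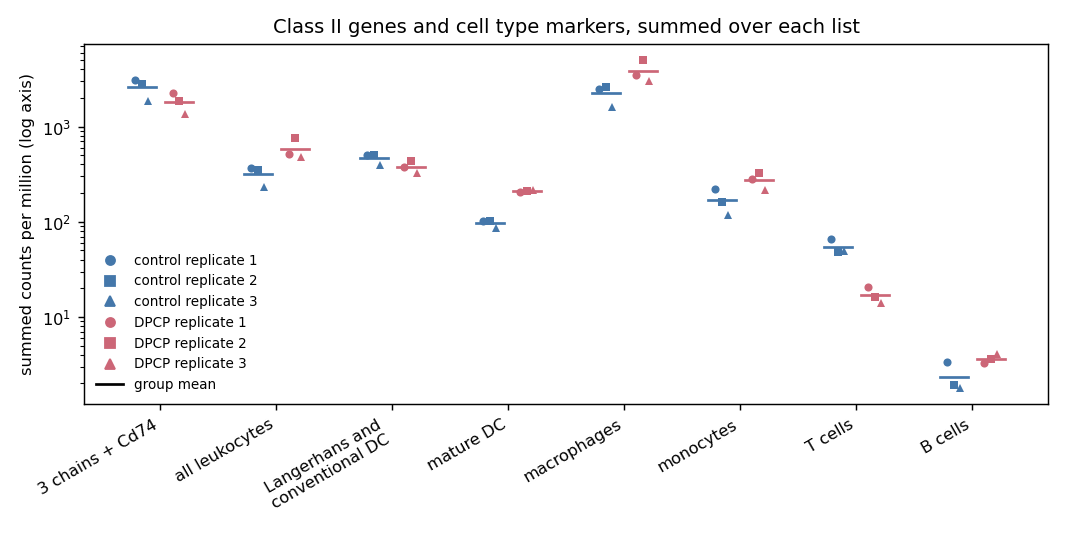
Summed CPM (log axis) of the 3 class II chains with Cd74 and of 7 marker lists in each library, with group means as bars. The class II sum is 3127, 2816 and 1857 CPM in control and 2249, 1853 and 1344 CPM in DPCP libraries, while the sums for all leukocytes are higher in each DPCP library than in any control library.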

How the data were processed

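Per the labels, polyadenylated RNA of dorsal skin was sequenced in pairs from stranded libraries. The deposited values are raw read counts per gene, made by the authors with featureCounts 1.6.2 and Ensembl release 102 gene models (GRCm38), per the file headers. Its recorded command sets no option for strand, pairs or multiple alignments, so mates were counted singly, on either strand, and reads shared by genes or places were dropped. Per the submitters' processing notes, Trimmomatic 0.36, HISAT2 2.2.1, StringTie 2.2.1 and DESeq2 1.34.0 were also used, with build mm10. The exon length used for RPKM is that of the deposited table.

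Here, edgeR 4.0.16 in R 4.3.3 tested DPCP against control (glmQLFTest, TMM factors of 0.942 to 1.04, filterByExpr at its defaults). The test was checked on simulated counts in which far fewer genes changed than were called here. Its behaviour under such broad change was not checked. SE is the unshrunken log2 fold change over the square root of F. CPM and RPKM use library totals, and ± is SD or SE as named. Symbols came from the gene name table (55141 of 55487 genes); all 133 list entries matched. Intervals and floors cover the stated errors only: mates are not independent molecules. Alternatives used limma 3.58.1 (voom), DESeq2 1.42.0, other factors and filters, a replicate block, and each library left out. Within groups libraries correlated at 0.985 to 0.987 and no 2 differed by as little as counting noise.

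The members and lists were chosen with earlier results of these data known. Named are all 10 members and, per list, up to 3 called genes with the smallest p in each direction, or the 2 with the smallest p where none was called. Also named are the 5 genes most like the chains and Cd74 over the 6 libraries. H2-Eb2, H2-Ea-ps, Ptprc, Ms4a1, Pax5, Ly6g and Krt14 were named after their values were seen. The values of 1 gene that this rule names are not reported here. The symbol March8 is the older name of Marchf8.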

Additional observations from a re-analysis of the deposited data

How the results depend on the processing

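Over 14 alternatives, 703 of 755 comparisons of a named gene with an alternative kept direction and side of the threshold, and 41 of 54 genes kept both throughout. The 1 higher call among the 10 class II genes was kept in all of them. The count of lower calls, 1 as reported, was 2 with upper-quartile factors, 2 with library totals alone, 4 with no count filter, 4 with DESeq2 and 0 to 4 when single libraries were left out. Lower calls among marker genes, 10 as reported, were 6 to 10 with single libraries left out. The log2 fold change of Ciita ranged from -0.27 to 0.051 (the latter without control replicate 1), and that of H2-Oa ranged from -0.59 to 0.38 when single libraries were left out. Labels number the replicates 1 to 3 in both groups. Deviations of same-numbered samples from their group means correlated at 0.0455, 0.0265 and 0.112 across genes. The labels do not say whether same-numbered samples are paired, and these small values cannot decide it. With the replicate block 6 class II genes were called lower and 11 macrophage genes higher. Not every sample correlated best with its own number. The cause of these changes was not tested. H2-Oa had 12 to 33 counts per library, and its interval was the widest of the 10 genes.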

Other observations

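Among 12416 tested genes with a symbol and a mean of at least 5 CPM, the 5 with the most similar pattern to the chains and Cd74 over the 6 libraries were Rassf4, 9930111J21Rik2, Ptpro, Cpq and Crip1. Likeness was the root mean square difference between centred log2 CPM values. It was 0.07 for Rassf4, 0.08 for 9930111J21Rik2, 0.10 for Ptpro, 0.10 for Cpq and 0.11 for Crip1. By the same measure the 4 genes that form the pattern lay at 0.05 (H2-Eb1), 0.09 (H2-Ab1), 0.10 (Cd74) and 0.10 (H2-Aa) log2 units from it, so Rassf4 and 9930111J21Rik2 lay closer than 3 of these 4. H2-DMb1 lay at 0.14, H2-DMa at 0.17, Ciita at 0.26, H2-Ob at 0.30, H2-Oa at 0.50 and Ctss at 0.88. Rassf4, which encodes a Ras association domain protein, was at 96.7 ± 22.95 CPM in control and 68.6 ± 15.02 CPM in DPCP skin (SD, n = 3) and was not called (log2 fold change -0.42 ± 0.19, SE, edgeR adjusted p = 0.108). None of the other 4 was called by edgeR either, at adjusted p of 0.108 to 0.365.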
